A study of Mus musculus with 21 samples.

Results

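The G1 machinery examined here consisted of 10 genes chosen by name for their role. They comprise the D cyclins Ccnd1, Ccnd2 and Ccnd3 and the kinases Cdk4 and Cdk6 that they activate. The inhibitors are the CIP/KIP genes Cdkn1a (p21), Cdkn1b (p27) and Cdkn1c (p57) and the INK4 genes Cdkn2a and Cdkn2c (p18). The INK4 protein of Cdkn2a is p16, and the locus also encodes p19ARF, which is not an INK4 protein. The 10 genes are part of the 55536 genes in the count tables. All 10 were among the 27229 genes that passed the filter of at least 10 read pairs summed over all samples. D cyclins bind CDK4 and CDK6, and the active kinases phosphorylate the retinoblastoma protein, which frees E2F factors to switch on genes of DNA replication. INK4 proteins bind the kinases themselves and keep D cyclins off, whereas CIP/KIP proteins bind cyclin-kinase complexes and above all restrain those of CDK2. In mouse islets, cyclin D2 and CDK4 are known to be needed for the postnatal growth of the β-cell mass, and p16 is known to accumulate with age and to limit β-cell replication.

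The RNA came from islets of male CBA mice on regular diet (RD), on high-fat diet (HFD) or on HFD mixed with O304 (HFD-O304), an activator of the energy-sensing kinase AMPK given at 0.8 mg per g of diet. Mice were 10 weeks old when the diets began and 20 weeks old at islet isolation, and the duration of diet is given as 10 weeks in one place of the study and as 9 weeks in another. Each group had 7 samples, and each sample was the RNA of 150 islets taken from a pool of 5 mice, so that the spread between samples is the spread between pools and mice within a pool cannot be told apart. In the labels of HFD-O304 replicate 1 the diet reads HFD and the title HFD-O304, and it was kept in the group of its title. HFD replicate 3 has HF in its title and HFD as its diet, and it was grouped by its diet. The libraries of replicates 1 to 4 and those of replicates 5 to 7 are numbered as separate library sets in each group.

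Between 13809266 and 48922569 read pairs per sample fell on genes, and replicate 2 of HFD-O304 was the shallowest. All 8 β-cell markers were detected in every sample. The islets also held RNA of other cells, and in bulk islet RNA fewer cells of a type and less RNA per cell cannot be told apart. The summed markers of stellate cells and fibroblasts (7 genes) ranged from 9536 to 13337 normalized counts in RD samples, from 11413 to 20786 in HFD samples and from 6248 to 10918 for HFD-O304, and those of α-cells (5 genes) ranged from 839089 to 1049514, from 377104 to 694809 and from 851868 to 1141878. Most of the sum for stellate cells and fibroblasts was Rgs5, with a mean of 8919 of 11593 normalized counts in RD samples. The summed markers of acinar cells (11 genes, 2 of them at 0 in some sample) ranged from 708 to 282262 over all samples.

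Per length of exon, Ccnd2 was the most abundant of the 10 mRNAs in every group. The length is the union of all annotated exons of a gene, from 1172 bases for Cdkn2a to 13989 for Cdk6. Which transcripts the islets made was not determined, so that the order of the genes depends on this length. Its level was 108.98 ± 8.82 RPKM (read pairs per kilobase of exon and 1e6 read pairs of library size, SD, n = 7 in this and the next values) in RD, 90.7 ± 2.57 for HFD and 110.7 ± 10.4 for HFD-O304. In RD islets Cdk4 (32.1 ± 2.42 RPKM) and Ccnd1 (31.9 ± 4.42) followed with overlapping samples. Cdkn1b was the most abundant inhibitor, at 18.3 ± 1.69 RPKM, above Cdkn1a at 6.11 ± 1.33, Ccnd3 at 4.59 ± 0.55 and Cdkn2c at 3.85 ± 0.50, and these last 3 overlapped with their neighbours in this order. Cdkn1c was lower still at 0.70 ± 0.18 RPKM, and Cdkn2a (0.15 ± 0.061) and Cdk6 (0.14 ± 0.032) had the lowest levels and could not be put in order. The order differed between the groups at neighbouring ranks. Cdk4 lay above Ccnd1 without overlap in HFD-O304 islets (33.6 ± 0.71 against 25.0 ± 1.27 RPKM) and overlapped with it in the other groups, and Cdkn1a lay above Ccnd3 without overlap only in HFD islets (9.52 ± 1.97 against 5.15 ± 0.45 RPKM).

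**Figure D1:**
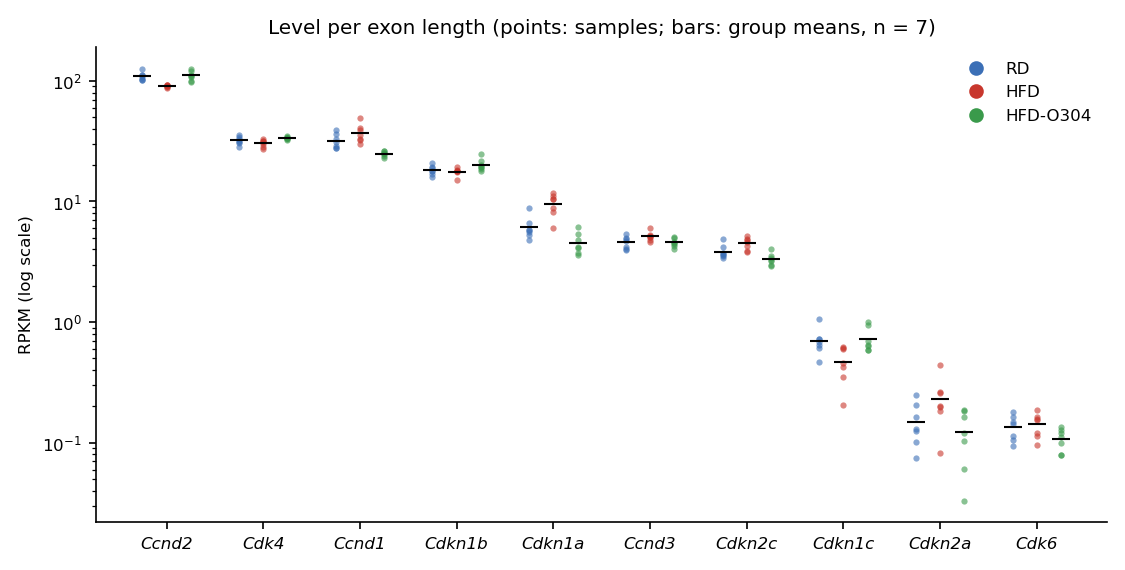
Level of the 10 genes in RPKM on a log axis, with 1 point per sample and a bar at each group mean (n = 7), in the order of the RD means. Ccnd2 lies near 108.98 RPKM in RD islets and Cdk6 near 0.14, with the other genes between them.

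As a share of the summed D cyclin RPKM of a sample, Ccnd2 made up 74.9% ± 2.40 in RD samples, 68.4% ± 3.14 in HFD samples and 78.9% ± 1.65 in HFD-O304 islets (mean ± SD of 7 samples). Ccnd1 made up 21.9% ± 2.32, 27.7% ± 3.12 and 17.9% ± 1.34. Ccnd3 accounted for the small remainder, from 2.90 to 4.32% over all samples. In HFD-O304 islets the Ccnd1 share had its highest sample at 19.9%, just under the lowest RD sample (also 19.9%), and the lowest HFD sample stood at 24.8%. The shares depend on the exon length used, which is 8775 bases over 21 transcripts for Ccnd3, 4709 over 3 for Ccnd1 and 9409 over 8 for Ccnd2. A union longer than the mRNA made in the islets lowers a gene's share. These shares are descriptions of the D cyclin pool and were not tested.

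In HFD against RD islets, Cdkn1a rose and Ccnd2 fell, and the other 8 genes did not pass the test. An adjusted p under 0.01 in edgeR's quasi-likelihood test was required, and SE below is the standard error of a log2 fold change. Of all genes tested, 3.54% passed, 2.00% higher and 1.54% lower in HFD islets. The 10 genes had a median log2 fold change of 0.12, against -0.0044 for all genes, and 6 of them had an unadjusted p under 0.05, as did 5714 of all 27229 genes. Ccnd2 was the 1 gene of the 10 without overlap between the samples of the groups, which was seen for 1.35% of all genes.

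In HFD-O304 against HFD islets, 4 of the 10 genes passed: Ccnd2 rose, and Ccnd1, Cdkn1a and Cdkn2c fell. In this comparison 11.9% of all genes passed, 5.08% higher and 6.79% lower in HFD-O304 islets. Groups without overlap were seen for 3 of the 10 genes (Ccnd1, Ccnd2 and Cdkn1a) and for 6.17% of all genes. The median log2 fold change of the 10 genes was -0.29, against 0.027 for all genes, and all 10 had an unadjusted p under 0.05, as did 29.3% of all genes. Both comparisons use the same HFD samples, so that their opposite signs for Ccnd2 and Cdkn1a are not independent of each other.

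In HFD-O304 against RD islets, 0 of the 10 genes passed edgeR's test, while 3 had an unadjusted p under 0.05, as did 14.4% of all genes, and 1 (Ccnd1) passed with DESeq2. Of all genes 1.31% passed, 0.404% higher and 0.903% lower in HFD-O304 islets. Ccnd1 was the 1 gene of the 10 whose groups did not overlap, against 1.56% of all genes. The median log2 fold change of the 10 genes was -0.11, against 0.0078 for all genes.

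**Figure D2:**
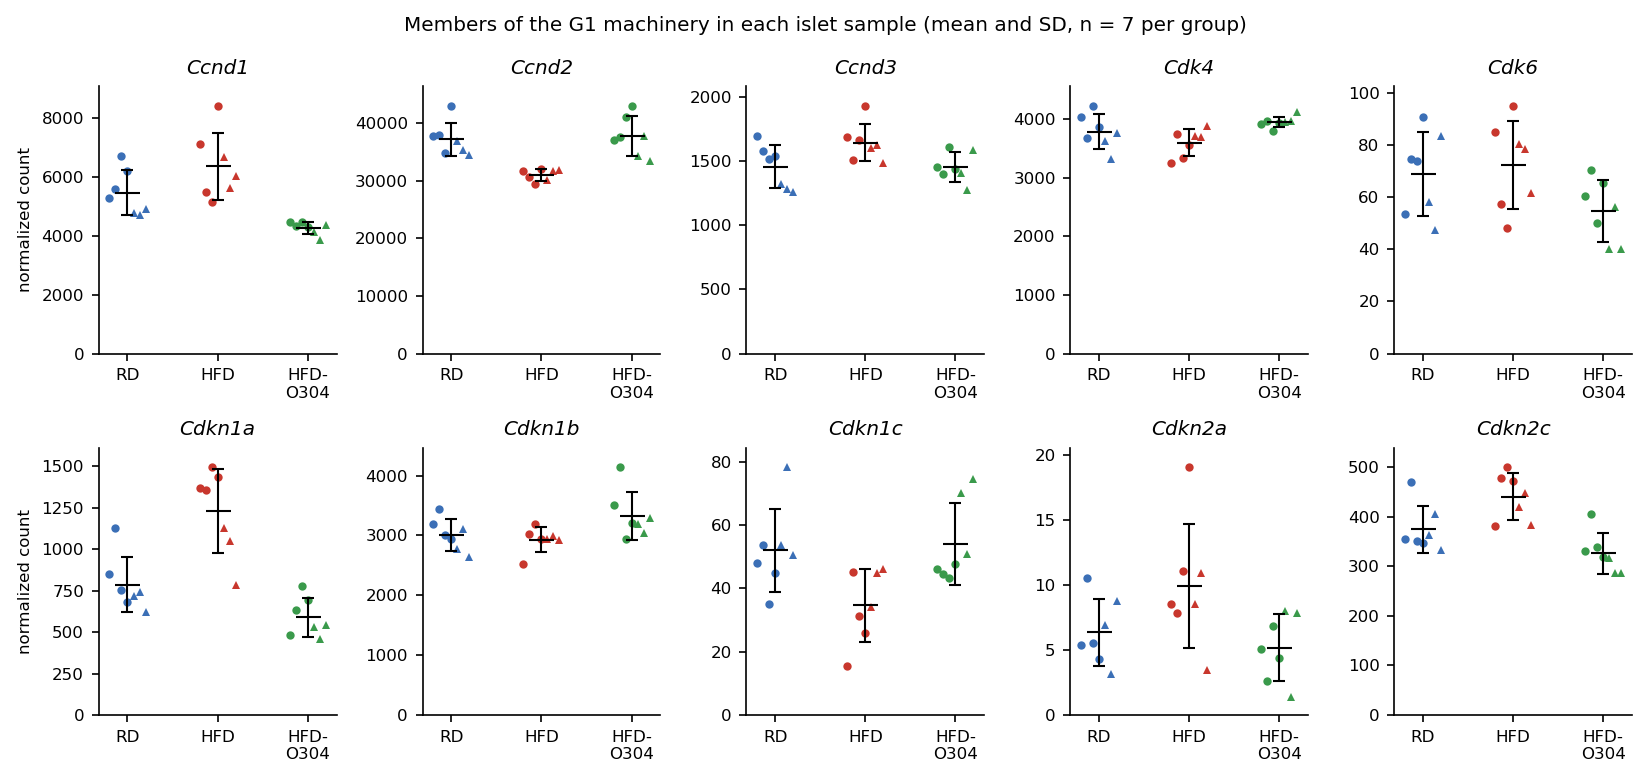
Normalized counts of each gene in every sample (circles, replicates 1 to 4; triangles, replicates 5 to 7), with the mean and SD of each group (n = 7). Ccnd2 in HFD islets (29357 to 31978) lies under all RD and HFD-O304 samples, and Cdkn1a in HFD islets (784 to 1495) lies above all HFD-O304 samples.

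Ccnd1 encodes cyclin D1 (ENSMUSG00000070348, chromosome 7 of GRCm38 from 144929931 to 144939925, minus strand). It had a lowest, median and highest value of 4694, 5287 and 6707 normalized counts in RD samples, of 5138, 6040 and 8413 in HFD samples and of 3856, 4321 and 4459 for HFD-O304. Every HFD-O304 sample lay below every RD and every HFD sample, and the RD and HFD samples overlapped, with replicates 1 and 4 of HFD alone above the highest RD sample. The HFD-O304 samples were also the closest together, with an SD of 215 normalized counts against 765 in RD and 1141 in HFD islets.

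Ccnd1 fell in HFD-O304 against HFD islets, by 0.57 on the log2 scale (SE 0.091, adjusted p = 3.76e-05, edgeR). Against RD islets its log2 fold change was -0.35 (SE 0.091, adjusted p = 0.0264, edgeR), which missed the threshold, whereas DESeq2 gave 0.00821 and edgeR on the RD and HFD-O304 samples alone gave 0.00573. Over all alternatives to that value the adjusted p lay between 0.00573 and 0.125. Between HFD and RD islets the log2 difference of Ccnd1 was 0.21 (SE 0.090, adjusted p = 0.159, edgeR).

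Ccnd2 encodes cyclin D2 (ENSMUSG00000000184, chromosome 6 from 127125162 to 127152193, minus strand). Its lowest, median and highest values were 34549, 36838 and 42986 normalized counts in RD samples, 29357, 31633 and 31978 in HFD samples and 33370, 37543 and 43017 for HFD-O304. All 7 HFD samples lay below the lowest sample of both other groups, which overlapped each other. The highest RD value belonged to replicate 4, apart from the other 6 RD samples, of which the next highest had 37875.

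Ccnd2 fell in HFD against RD islets, with a log2 fold change of -0.26 (SE 0.058, adjusted p = 0.00418, edgeR), a decrease of 16.8%. This call was close to the threshold. Leaving out replicate 1 or 4 of RD, or replicate 2, 3 or 5 of HFD, gave adjusted p-values between 0.0101 and 0.0118 with log2 fold changes from -0.26 to -0.22. Within replicates 1 to 4 the log2 fold change was -0.32 (adjusted p = 0.0228) and within replicates 5 to 7 it was -0.19 (adjusted p = 0.0483), past the threshold in neither (edgeR).

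Ccnd2 rose in HFD-O304 against HFD islets, with a log2 fold change of 0.29 (SE 0.058, adjusted p = 0.000566, edgeR), and in replicates 5 to 7 alone the value was 0.18 (adjusted p = 0.0428). Against RD islets the log2 fold change was 0.023 (SE 0.058, adjusted p = 0.918, edgeR).

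Ccnd3 encodes cyclin D3 (ENSMUSG00000034165, chromosome 17 from 47505051 to 47599691, plus strand). Its samples ranged from 1258 to 1701 normalized counts in RD samples, from 1483 to 1933 in HFD samples and from 1275 to 1612 for HFD-O304, and the groups overlapped. Its log2 fold changes were 0.17 in HFD against RD (adjusted p = 0.166), -0.17 in HFD-O304 against HFD (0.102) and -0.0028 in HFD-O304 against RD islets (0.993), none past edgeR's threshold. Part of Ccnd3 overlaps Bysl on the other strand, and part of Ccnd1 overlaps LTO1, but 1.07% and 1.36% of the read pairs over these genes came from the other strand.

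Neither kinase passed in any comparison. Cdk4 (ENSMUSG00000006728, chromosome 10 from 127063534 to 127067920, plus strand), the main D cyclin partner in mouse β-cells, ranged from 3323 to 4227 normalized counts in RD samples, from 3244 to 3883 in HFD samples and from 3804 to 4115 for HFD-O304. In the last group 6 of 7 samples lay above the highest HFD sample, and its log2 fold change against HFD islets was 0.14 (SE 0.054, adjusted p = 0.0678, edgeR). In HFD against RD islets it was -0.079 (adjusted p = 0.452, edgeR). Of the read pairs over Cdk4, 25.9% came from the other strand, where Tspan31 overlaps it, and the values here count the Cdk4 strand alone.

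Cdk6 (ENSMUSG00000040274, chromosome 5 from 3341485 to 3531008, plus strand) had between 27 and 95 read pairs per sample. Its log2 fold changes were 0.062 in HFD against RD (SE 0.17), -0.34 in HFD-O304 against RD (0.18) and -0.41 in HFD-O304 against HFD islets (0.17), with adjusted p-values of 0.897, 0.381 and 0.113 (edgeR). Its samples ranged from 40.0 to 95.1 normalized counts over the 3 groups, which overlapped.

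**Figure D3:**
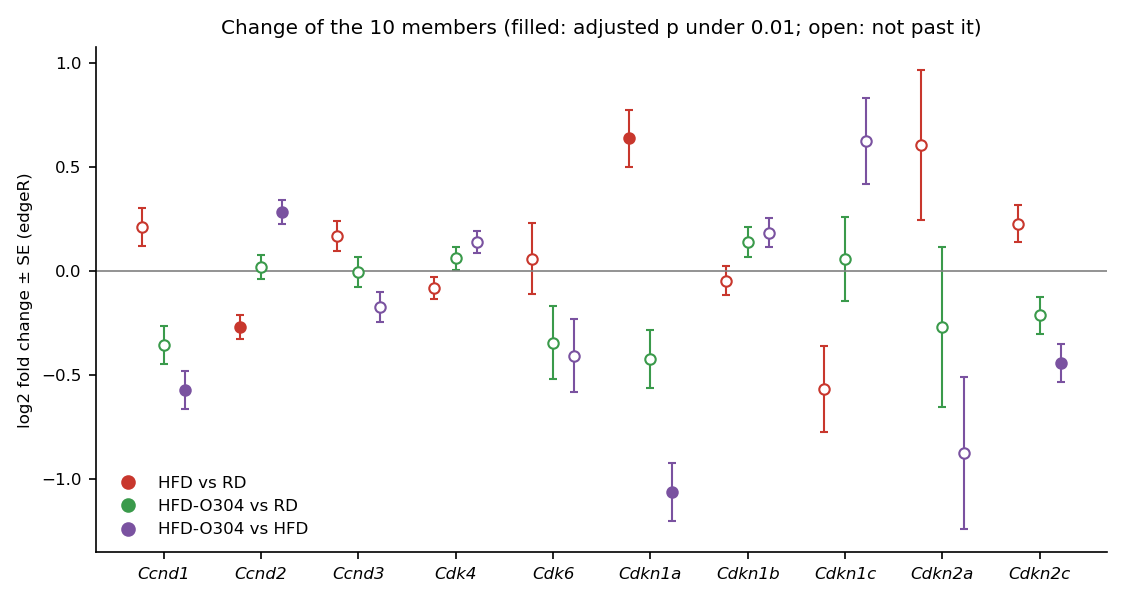
Log2 fold change and standard error (SE) of each gene in the 3 comparisons (edgeR, 7 samples per group), filled where the adjusted p was under 0.01. Cdkn1a has the largest called changes, 0.64 in HFD against RD and -1.06 in HFD-O304 against HFD islets, and no marker of HFD-O304 against RD islets is filled.

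Cdkn1a encodes p21 (ENSMUSG00000023067, chromosome 17 from 29090976 to 29100727, plus strand), a CDK inhibitor known as a target of p53. RefSeq lists a pair of start sites for it, and the 250 bases before each are printed because Cdkn1a had the largest called changes among the 10 genes. Capitals in the upstream window mark a paired p53 element, and capitals in the downstream window mark GC boxes (GGGCGG on either strand).

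Cdkn1a upstream start, chr17:29090729-29090978, plus strand: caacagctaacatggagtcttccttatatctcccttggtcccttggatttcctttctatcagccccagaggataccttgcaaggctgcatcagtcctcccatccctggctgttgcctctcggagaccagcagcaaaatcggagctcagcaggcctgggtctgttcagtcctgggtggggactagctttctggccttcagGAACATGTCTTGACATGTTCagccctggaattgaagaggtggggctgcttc

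Cdkn1a downstream start, chr17:29093519-29093768, plus strand: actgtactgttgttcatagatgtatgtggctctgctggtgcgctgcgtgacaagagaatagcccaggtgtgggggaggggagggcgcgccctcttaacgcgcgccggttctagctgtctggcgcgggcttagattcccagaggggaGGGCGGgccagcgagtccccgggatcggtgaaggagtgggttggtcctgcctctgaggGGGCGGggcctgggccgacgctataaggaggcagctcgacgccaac

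The paired p53 element, 20 letters with 1 mismatch to the p53 consensus, began 51 bases before the upstream start. A match without a gap and with at most 1 mismatch was found in 25 of the 32851 mouse windows of this length in the RefSeq table, or 0.0761%, and GC boxes in 32.7%. This search was added after the sequence had been seen. A match in the letters is a description of the sequence and says nothing about binding in these islets.

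Cdkn1a had a lowest, median and highest value of 620, 745 and 1131 normalized counts in RD samples, of 784, 1359 and 1495 in HFD samples and of 461, 541 and 778 in HFD-O304 islets. All HFD samples lay above all HFD-O304 samples, although the gap was narrow, since HFD replicate 7 had 784 and HFD-O304 replicate 3 had 778. Of the HFD samples, 4 lay above the highest RD sample, all of them from replicates 1 to 4, and HFD replicates 5 to 7 had 1126, 1047 and 784.

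Cdkn1a rose in HFD against RD islets, with a log2 fold change of 0.64 (SE 0.14, adjusted p = 0.00381, edgeR), or 1.56-fold. Leaving out replicate 5 or 7 of RD, or replicate 3 or 4 of HFD, gave adjusted p-values between 0.0106 and 0.0128 with log2 fold changes from 0.58 to 0.62. Without replicate 3 of HFD, the sample with HF in its title, neither Cdkn1a nor Ccnd2 passed. The log2 fold change was 0.72 within replicates 1 to 4 (adjusted p = 0.00562) and 0.50 within replicates 5 to 7 (adjusted p = 0.0208, edgeR), and its interaction with the library set did not pass (-0.21, adjusted p = 0.859).

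Cdkn1a fell in HFD-O304 against HFD islets, where it decreased by 1.06 on the log2 scale (SE 0.14, adjusted p = 3.02e-06, edgeR), and it passed under all alternatives. Against RD islets its log2 fold change was -0.42 (SE 0.14, adjusted p = 0.112, edgeR), with 4 of 7 HFD-O304 samples below the lowest RD sample.

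The called markers in the list of stellate cells and fibroblasts moved in the same directions as Cdkn1a. In HFD against RD islets 2 of the 7 markers were higher and 0 lower (Acta2, 0.91, and Rgs5, 0.49, as log2 fold changes). With O304 added to the HFD, 5 of 7 were lower and 0 higher, among them Acta2 (-1.73) and Col3a1 (-1.45). Against RD islets 2 of 7 were lower in HFD-O304 islets (Acta2, -0.82, and Rgs5, -0.65), while Col1a1 (0.36) and Dcn (0.29) had the opposite sign and did not pass. The collagen genes Col1a1, Col1a2 and Col3a1, and Dcn, did not pass in HFD against RD islets. None of the 7 markers was at 0 in any sample, and their part in the Cdkn1a result was not tested. The markers of α-cells moved the other way, with 4 of 5 lower in HFD against RD and 4 of 5 higher in HFD-O304 against HFD islets (Ttr had the opposite sign in each), and those of δ-cells with 3 of 4 lower and 4 of 4 higher. Their part in the Ccnd2 result, which has the same signs, was not tested.

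Markers of further cell types moved in HFD-O304 against HFD islets, where Ccnd1, Cdkn2c and the genes of S and M phase described below fell. Of 6 endothelial markers 2 were lower and 0 higher (Pecam1, -0.50, and Cdh5, -0.55, as log2 fold changes), and their sum ranged from 17070 to 20874 normalized counts in RD samples, from 16146 to 23679 in HFD samples and from 13519 to 20411 for HFD-O304. Of 6 duct markers 3 were higher and 0 lower (Krt19, 1.15, Sox9, 0.89, and Cftr, 2.68), while Krt7 (-0.20) and Spp1 (-0.33) had the opposite sign and did not pass. The sum of the 6, with 1 marker at 0 in some sample, ranged from 7431 to 9812, from 8856 to 13856 and from 8566 to 11012. Most of it was Krt7, with a mean of 6251 of 8600 normalized counts in RD samples. Of 7 leukocyte markers 2 were higher (Csf1r, 0.45, and Cd79a, 1.19). Of the 8 β-cell markers, Iapp (-0.60), Ins2 (-0.23) and Ins1 (-0.20) were lower and Slc2a2 (0.74) and Ucn3 (0.52) higher. In HFD against RD islets Iapp was higher (0.41) and Slc2a2 lower (-0.68), and 0 of the endothelial, duct and leukocyte markers passed in edgeR. The part of these markers, and of those of stellate cells, in the changes of Ccnd1, Cdkn2c and the genes of S and M phase was not tested.

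The other CIP/KIP inhibitors did not pass edgeR's test on all samples. Cdkn1b (ENSMUSG00000003031, chromosome 6 from 134920401 to 134925513, plus strand), a major brake on β-cell division, ranged from 2647 to 3449 normalized counts in RD samples, from 2519 to 3189 in HFD samples and from 2939 to 4138 for HFD-O304, with overlap between all groups. Its log2 fold changes were -0.045, 0.14 and 0.19 in HFD against RD, HFD-O304 against RD and HFD-O304 against HFD islets, with adjusted p-values of 0.797, 0.359 and 0.0642 (edgeR).

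Cdkn1c (ENSMUSG00000037664, chromosome 7 from 143458339 to 143461050, minus strand), an imprinted gene, had 11 to 79 read pairs per sample. Its lowest, median and highest values were 35.1, 50.5 and 78.3 normalized counts for RD, 15.6, 34.0 and 46.1 for HFD and 43.4, 47.7 and 74.6 for HFD-O304. HFD replicate 1 was the lowest of all samples, and 5 of 7 HFD-O304 samples lay above the highest HFD sample. The log2 fold change was -0.57 in HFD against RD (SE 0.21, adjusted p = 0.0971) and 0.63 in HFD-O304 against HFD islets (SE 0.21, adjusted p = 0.0329, edgeR), so that neither passed, and that in HFD-O304 against RD islets was 0.061 (adjusted p = 0.941).

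Of the INK4 inhibitors, Cdkn2c passed in 1 comparison and Cdkn2a in none. Cdkn2c encodes p18 (ENSMUSG00000028551, chromosome 4 from 109660876 to 109667189, minus strand). RefSeq lists a pair of start sites for it too, and the windows before them differ in base composition, with 77.2% G and C before the upstream start and 42.8% before the downstream one. The upstream window is printed because Cdkn2c was called, with its 3 GC boxes in capitals, and the downstream window held none of the motifs searched.

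Cdkn2c upstream start, chr4:109666757-109667006, minus strand: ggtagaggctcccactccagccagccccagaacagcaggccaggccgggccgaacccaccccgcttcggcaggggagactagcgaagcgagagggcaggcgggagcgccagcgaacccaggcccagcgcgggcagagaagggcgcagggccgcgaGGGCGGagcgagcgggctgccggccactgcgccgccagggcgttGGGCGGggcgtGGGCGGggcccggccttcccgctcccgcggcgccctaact

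Cdkn2c had a lowest, median and highest value of 332, 356 and 469 normalized counts in RD samples, of 381, 447 and 499 in HFD samples and of 285, 319 and 405 in HFD-O304 islets. In HFD-O304 islets 6 of 7 samples lay below the lowest HFD sample, and replicate 2, the shallowest library, was the exception. Cdkn2c fell in HFD-O304 against HFD islets, with a log2 fold change of -0.44 (SE 0.089, adjusted p = 0.000638, edgeR). Within replicates 1 to 4 the value was -0.42 (adjusted p = 0.0288) and within replicates 5 to 7 it was -0.48 (adjusted p = 0.00495). Between HFD and RD islets the log2 difference of Cdkn2c was 0.23 (adjusted p = 0.121) and in HFD-O304 against RD islets it was -0.21 (adjusted p = 0.254, edgeR).

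Cdkn2a (ENSMUSG00000044303, chromosome 4 from 89274471 to 89294653, minus strand) had 154 read pairs in all 21 samples together, with 1 to 19 per sample. The locus gives rise to p16 and p19ARF from separate first exons, and the gene count does not separate the 2 annotated transcripts. It had 3 to 11 read pairs per sample in RD, 4 to 19 for HFD and 1 to 9 for HFD-O304, and replicate 4 of HFD held the highest count. Its log2 fold changes of 0.61 in HFD against RD (SE 0.36, adjusted p = 0.363) and -0.87 in HFD-O304 against HFD islets (SE 0.37, adjusted p = 0.101, edgeR) carried the widest errors of the 10 genes.

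Of the 10 genes, 7 had entries in the RefSeq table of promoters (GRCm38.p6), with 11 windows. Ccnd1, Ccnd2 and Cdkn1c had none. E2F sites were searched as TTTCCCGC, TTTGGCGC and TTTCGCGC, the CRE as TGACGTCA, the E box as CACGTG, and CCAAT and the TATA box (TATAAA) by these letters, all on both strands. The Cdk4 window (chr10:127063285-127063534) held 4 E boxes, the letters bound by MYC and MAX, where 6.02% of all windows held at least 1. The Cdk6 window held 1 E box, and the other windows of the 10 genes held none. The window before the upstream Cdkn2a start (chr4:89294620-89294869) held 1 E2F site, as did 1.53% of all windows. CRE sites were in 1.55%, CCAAT in 33.8% and TATA boxes in 12.4% of all windows, and the Cdk6 window held 1 TATA box. No CRE letters stood in the 11 windows.

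When HFD-O304 replicate 1, whose title and diet label differ, was left out, the same 4 genes passed in HFD-O304 against HFD islets, with log2 fold changes of -0.59 for Ccnd1, 0.29 for Ccnd2, -1.02 for Cdkn1a and -0.45 for Cdkn2c. Within the library sets, all 4 kept their signs in HFD-O304 against HFD islets. Ccnd1 and Cdkn1a passed in both sets, Ccnd2 in replicates 1 to 4 and Cdkn2c in replicates 5 to 7. A diet by library set interaction was past the threshold for 0 of the 10 genes in each comparison by edgeR and by DESeq2, which gave no adjusted p to Cdk6, Cdkn1c and Cdkn2a in HFD-O304 against HFD islets. At an unadjusted p under 0.05 the interaction in edgeR held 1, 1 and 0 of the 10 genes in HFD against RD, HFD-O304 against RD and HFD-O304 against HFD islets, and 6.84%, 5.57% and 4.83% of all genes.

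**Figure D4:**
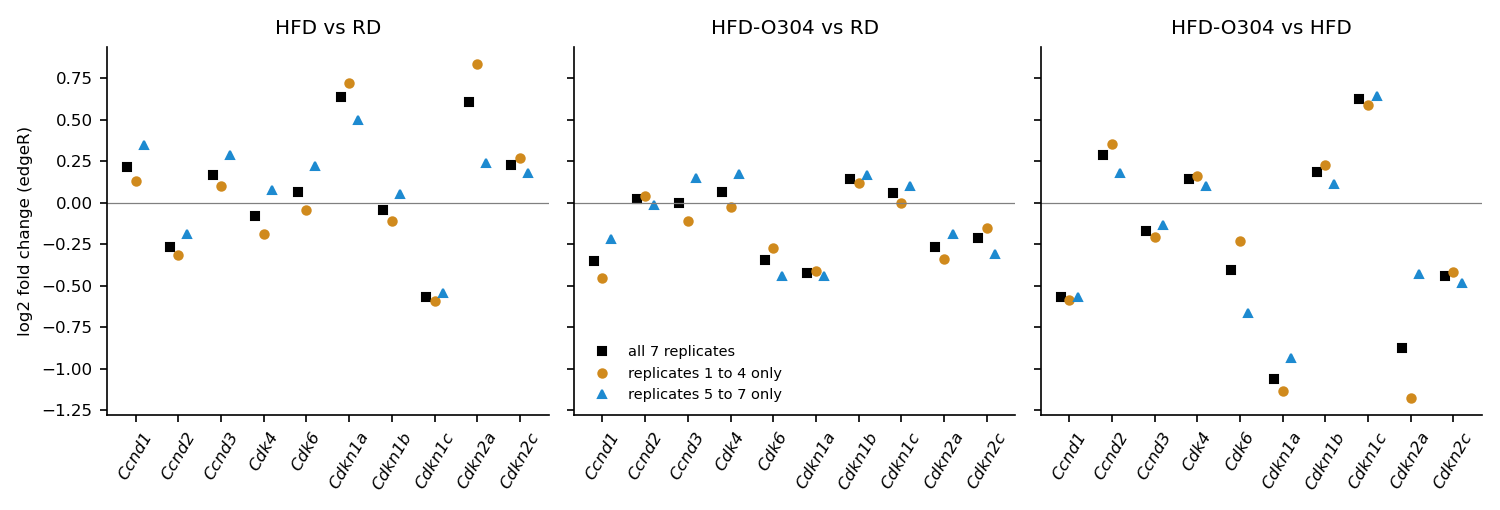
Log2 fold change of each gene (edgeR) over all 7 replicates per group (squares), within replicates 1 to 4 (circles) and within replicates 5 to 7 (triangles). Cdkn1a lies at -1.06, -1.14 and -0.94 in HFD-O304 against HFD islets, and genes near 0, such as Cdk4 in HFD against RD islets, lie on both sides of it.

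Genes whose levels varied most like those of the 4 called genes were sought over the 21 samples among the 13215 genes that averaged 50 normalized counts or more. The points share groups, library sets and depth. Cdkn1a was most like Aspn (Pearson's r = 0.97, Spearman's rho = 0.95), Prss23 (0.96 and 0.94) and Shc4 (0.96 and 0.93). Ccnd1 was most like Wars (0.95 and 0.94), Manf (0.94 and 0.91) and Gcdh (0.93 and 0.92). For Ccnd2 the highest values were lower, at 0.87 for Sdha and Fip1l1 and 0.85 for Eef1a2 (Pearson's r, with rho of 0.81, 0.85 and 0.80). Cdkn2c was most like Mc5r, Cdkn1a and Tiam1, with Pearson's r of 0.87, 0.86 and 0.86 and rho of 0.88, 0.85 and 0.89.

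Among 18 other cyclins, kinases and their regulators, 5 rose and 0 fell in HFD against RD islets. Those with the largest changes were Cdkn3, a phosphatase of CDKs (log2 fold change 1.68), Cdk1, the kinase of mitotic entry (1.67), and Cdc25c, the phosphatase that activates it (1.44). In HFD-O304 against HFD islets 10 fell and 0 rose, led by Cdkn3 (-2.39), Cdk1 (-2.32) and Cks2, a small CDK subunit (-1.99). In HFD-O304 against RD islets Ccnh, the cyclin of the CDK-activating kinase, alone fell (-0.49). The median log2 fold changes of the list were 0.36, -0.52 and -0.17 in this order. For this list and those below, 2.00% of all genes were called higher and 1.54% lower in HFD against RD islets. The shares were 5.08% and 6.79% in HFD-O304 against HFD islets, and 0.404% and 0.903% in HFD-O304 against RD islets. Without replicate 1, 3, 5 or 7 of RD, or 1, 2, 3 or 4 of HFD, 3 in place of 5 genes rose in HFD against RD islets, and with DESeq2, or with the library set as a covariate, 8 rose. In HFD-O304 against RD islets DESeq2 called 2 lower, and with edgeR, without replicate 3 or 4 of HFD-O304, 2 genes fell there.

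Ccne1 and Ccne2 encode E cyclins, which activate CDK2 after the D cyclins have acted. Ccne1 had 202 ± 37.6 normalized counts in RD samples, 283 ± 51.0 in HFD samples and 133 ± 28.1 for HFD-O304 (SD, n = 7 each). It fell in HFD-O304 against HFD islets (log2 fold change -1.08, adjusted p = 1.62e-06), while 0.48 in HFD against RD (adjusted p = 0.0232) and -0.61 in HFD-O304 against RD islets (adjusted p = 0.0107, edgeR) missed the threshold, and DESeq2 called both (adjusted p = 0.00503 and 0.000827). With the library set as a covariate, edgeR called Ccne1 lower in HFD-O304 against RD islets (adjusted p = 0.00458). Ccne2 had 187 ± 21.3, 300.1 ± 89.2 and 193 ± 17.3 normalized counts, and rose in HFD against RD (0.67, adjusted p = 0.00211) and fell in HFD-O304 against HFD islets (-0.62, adjusted p = 0.00124, edgeR). Cdk2 had 96.8 ± 9.49, 126 ± 23.7 and 95.1 ± 11.4 normalized counts and did not pass, with log2 fold changes of 0.37 in HFD against RD (adjusted p = 0.0510) and -0.40 in HFD-O304 against HFD islets (0.0159, edgeR), where DESeq2 called it (adjusted p = 0.00328).

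The INK4 genes beyond the 10 did not pass in any comparison. Cdkn2b (p15), the neighbour of Cdkn2a, had 179 ± 21.1, 204 ± 29.7 and 197 ± 32.4 normalized counts for RD, HFD and HFD-O304 islets. Cdkn2d (p19) had 301 ± 17.1, 337 ± 43.1 and 322 ± 31.5. Their adjusted p-values lay between 0.275 and 0.895 over the 3 comparisons (edgeR).

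Downstream of the D cyclins, 4 of 19 pocket protein and E2F genes rose and 0 fell in HFD against RD islets. E2f8, a repressive E2F, had a log2 fold change of 1.48, Foxm1, a factor of mitotic genes, of 0.83, and E2f1, an activating E2F, of 0.61. Relative to HFD islets, 8 fell and 0 rose in HFD-O304 islets, led by E2f8 (-2.46), E2f1 (-1.09) and Foxm1 (-1.03). When 1 sample was left out, 5 to 8 fell. The number was 5 without HFD replicate 1, and 8 only without HFD replicate 6 or 7 or HFD-O304 replicate 4. Without HFD-O304 replicate 7, 1 gene rose. Against RD islets 0 passed in edgeR's main fit, where 7 had an unadjusted p under 0.05 (14.4% of all genes did). DESeq2 called 3, all lower in HFD-O304 islets. With the library set as a covariate, edgeR called E2f1 (adjusted p = 0.000175) and E2f2 (0.00958) lower, and without the filter on low counts E2f1 (0.00996). In that comparison, without RD replicate 1, 2 fell, and without HFD-O304 replicate 3, 1 fell. Rb1 and its relatives Rbl1 and Rbl2 were not among the genes called by edgeR, and DESeq2 called Rbl1 lower in HFD-O304 against HFD islets (-0.37, adjusted p = 0.00940, against 0.0216 with edgeR). There DESeq2 also called E2f4 higher (0.17, adjusted p = 0.00889), where edgeR on all samples called 0 genes higher.

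Of 22 genes of S and M phase, 13 rose and 0 fell in HFD against RD islets, and the list had a median of 0.92 on the log2 scale. Plk1 (1.79) and Birc5 (1.69), genes of mitosis, and Mki67 (1.68) had the largest changes. Relative to HFD islets, 19 fell and 0 rose in HFD-O304 islets (median -1.42), led by Bub1 (-2.51), Mki67 (-2.44) and Top2a (-2.18). Against RD islets Rrm2, a subunit of ribonucleotide reductase (-0.86), and Mcm2, of the replicative helicase (-0.54), fell, and 1 gene in place of 2 fell without any 1 of RD replicates 1, 2, 3, 4 and 7 or HFD-O304 replicates 2, 5 and 6. Mki67, Cdk1 and their like mark dividing cells of any type, and the cells that held these mRNAs were not identified.

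**Figure D5:**
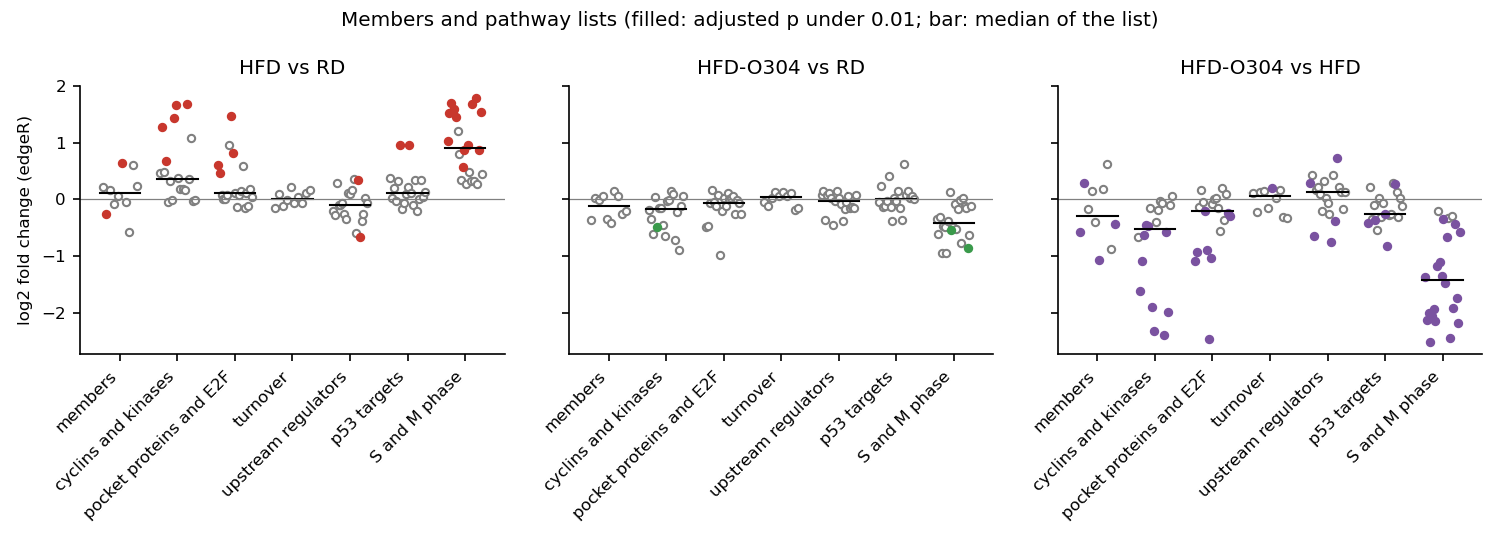
Log2 fold change (edgeR) of the 10 genes and of every gene of 6 pathway lists in each comparison, filled where the adjusted p was under 0.01, with a bar at the list's median. The list of S and M phase has medians of 0.92, -0.42 and -1.42 in HFD against RD, HFD-O304 against RD and HFD-O304 against HFD islets, and the turnover list stays near 0.

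Over all 6 lists, with a gene of several lists counted once, 26 genes were called in HFD against RD islets with all replicates. Of these, 24 passed within replicates 1 to 4, with 4 samples a group, and 1 within replicates 5 to 7, with 3 samples a group. Of 48 called in HFD-O304 against HFD islets 38 and 21 passed, and of 3 called in HFD-O304 against RD islets 1 and 3. All signs were the same in both sets, and the difference between the sets was not tested for the lists.

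Of 19 p53 target genes other than Cdkn1a, 2 rose and 0 fell in HFD against RD islets: Phlda3, an inhibitor of AKT signalling (log2 fold change 0.97), and Eda2r, a receptor of the TNF family (0.96). DESeq2 called 4 higher there, adding Ccng1 and Aen. Of the list, 4 genes fell in HFD-O304 against HFD islets, among them Phlda3 (-0.82), the exonuclease gene Aen (-0.41) and Ccng1, cyclin G1 (-0.37), and 1 rose, Sesn1 (0.28). Without HFD replicate 1 or 4, or HFD-O304 replicate 1, 2 or 6, 2 in place of 4 fell, and without HFD replicate 4 or 5, or HFD-O304 replicate 2 or 6, Sesn1 did not pass. Against RD islets 0 passed with edgeR and 0 with DESeq2, and 6 had an unadjusted edgeR p under 0.05 (14.4% of all genes did). The list's medians were 0.12, -0.25 and 0.016 in HFD against RD, HFD-O304 against HFD and HFD-O304 against RD islets. In the same order 3.54%, 11.9% and 1.31% of all genes passed. Of these 19 genes 14 had a window in the promoter table, and 1, Ccng1, held a paired p53 element. Its 20 letters, beginning 195 bases before the start, are set beside those of Cdkn1a.

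Cdkn1a, chr17:29090928-29090947, plus strand: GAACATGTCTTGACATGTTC

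Ccng1, chr11:40755462-40755481, minus strand: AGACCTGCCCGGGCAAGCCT

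Among 19 upstream regulators, Nfatc1, a calcineurin-dependent factor, rose (0.33) and Smad3, of TGF-β signalling, fell (-0.67) in HFD against RD islets. In HFD-O304 against HFD islets Smad3 (0.73) and Bmi1, a Polycomb gene that represses Cdkn2a (0.28), rose. Myc (-0.74), Ezh2, the Polycomb methyltransferase (-0.64), and Nfatc1 (-0.37) fell. Of all genes 3.54% passed in HFD against RD and 11.9% in HFD-O304 against HFD islets. The fall of Myc was close to the threshold (adjusted p = 0.00936, edgeR). When 1 sample was left out, 2 in place of 3 fell, except without HFD replicate 7 or HFD-O304 replicate 3. Without HFD replicate 4 Nfatc1 did not pass in HFD against RD islets, and 2 or 3 genes in place of 1 fell there without RD replicate 2 or HFD replicate 6 or 7. DESeq2 called 4 lower there, adding Kmt2a, Stat5a and Stat5b, and 3 were lower with the library set as a covariate. Without HFD replicate 4 or 5, or HFD-O304 replicate 2 or 6, 1 in place of 2 rose in HFD-O304 against HFD islets, and with DESeq2 4 rose, adding Kmt2a and Cbx7. Against RD islets 0 passed with edgeR, where 3 of 19 had an unadjusted p under 0.05 (14.4% of all genes did) and DESeq2 called 1, lower in HFD-O304 islets, and with edgeR 1 fell without RD replicate 2. Neither Trp53, which encodes p53, nor Men1, which encodes menin, was called in any comparison.

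Of 10 genes for the turnover of cyclins and inhibitors, 0 passed with edgeR or DESeq2 in HFD against RD or HFD-O304 against RD islets, and 1 in each had an unadjusted edgeR p under 0.05 (5714 and 3912 of all 27229 genes did). Fbxw7, the ubiquitin ligase subunit that recognizes cyclin E, rose in HFD-O304 against HFD islets (0.20, adjusted p = 0.00697, edgeR). This was 1 of 10 genes, in a comparison where 11.9% of all genes passed. Fbxw7 did not pass without any 1 of HFD replicates 4, 5 and 6 or HFD-O304 replicates 1, 2, 4, 5 and 6.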

How the data were processed

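RNA-seq of islets was analysed in 21 samples (RD, HFD and HFD-O304, 7 each). The authors aligned paired reads of 50 bases to GRCm38 with STAR (FastQC is also named, versions not given in the sources used here) and deposited counts of read pairs per gene for 3 strand settings. The column of the reverse strand was used here. R 4.3.3, edgeR 4.0.16 (quasi-likelihood test, TMM factors from 0.907 to 1.07, all groups in a single fit, genes with at least 10 read pairs in all) and DESeq2 1.42.0 (as an alternative, and for size factors of normalized counts) were used, with Benjamini-Hochberg adjusted p under 0.01. Standard errors are the log2 fold change divided by the root of F. RPKM were computed from TMM-scaled library sizes and the union of exons in GENCODE M21 (Ensembl 96).

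The 10 genes, lists and tests were chosen with earlier results of these data known. Named are all 10 genes, Cdkn2b, Cdkn2d, Cdk2, Ccne1 and Ccne2, and from each list the called genes, or the 3 with the largest change in each direction. Every pair of replicates in a group differed beyond counting noise, so none was merged. Scripts were tested on simulated data. Alternatives covered the test, normalization, filter, strand, which groups were fitted together, a block for replicate number, a covariate for library set, the threshold and leaving out each sample. P-values measure the spread between pools.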

Additional observations from a re-analysis of the deposited data

Results flagged for a closer look

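Within a group of 7, 3 of the 30 groups of values (10 genes in 3 groups) had a highest or lowest sample that stood apart by Dixon's test at the 95% level, which chance gives in about 1 of 20 groups. Ccnd2 in RD replicate 4 had 42986 normalized counts, with the nearest sample at 37875. Without that sample the log2 fold change of Ccnd2 in HFD vs RD islets was -0.22 (adjusted p = 0.0118, edgeR), in place of -0.26. Cdkn1b in HFD replicate 1 had 2519, with the nearest at 2919, and Cdkn1c in RD replicate 6 had 78.3, with the nearest at 53.7.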

How the results depend on the processing

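The 4 calls among the 10 genes in HFD-O304 vs HFD islets were present without each sample in turn (4 to 4 genes), and under all alternatives with all replicates. In HFD-O304 vs RD islets the number called was 1 (Ccnd1) with DESeq2, 1 with the 2 groups alone and 1 at an adjusted p under 0.05, in place of 0. In HFD vs RD islets replicates 1 to 4 gave 1 and replicates 5 to 7 gave 0, in place of 2, and 0 to 2 without each sample in turn. Signs turned only for values not called. For Ccnd3 in HFD-O304 vs RD islets the log2 fold change was 0.011 without the filter, 0.013 on unstranded counts, 0.0016 with the block, 0.0041 with the library set and 0.15 within replicates 5 to 7 (-0.036 to 0.039 without each sample). Cdkn1c there had -0.090 on unstranded counts and -0.0044 within replicates 1 to 4 (-0.031 to 0.19 without each sample), Cdk4 -0.027 within replicates 1 to 4, and Ccnd2 -0.013 within replicates 5 to 7 (-0.011 to 0.071 without each sample). In HFD vs RD islets Cdk6 had -0.047 within replicates 1 to 4 (-0.020 to 0.15 without each sample), and Cdk4 and Cdkn1b had 0.073 and 0.051 within replicates 5 to 7. The cause was not tested.

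Over all genes, 963, 356 and 3230 passed in HFD vs RD, HFD-O304 vs RD and HFD-O304 vs HFD islets. Counts moved by more than 1.5 times with DESeq2 (1758 and 727 in the first 2), the replicate block (1577 and 543), the library set as a covariate (1611 and 543) and the 2 groups alone (627 in the first). They also moved within replicates 1 to 4 (563, 85 and 2001) and 5 to 7 (307, 228 and 1456), at an adjusted p under 0.05 (2148, 785 and 5150), and without single samples (589 to 1594 in the first, 221 to 369 in the second). Replicate numbers were not taken as pairs, and the main fit held no term for them. Of 21 same-numbered pairs, 15 had a correlation of deviations over 0.1 (mean of all 0.21, lowest -0.54). Of the 21, 7 correlated best with their own number. Same-numbered samples also share a library set, and whether number or set gave these correlations was not tested. With the replicate number as a block, 2, 0 and 5 of the 10 genes passed, the added one being Cdkn1c in HFD-O304 vs HFD islets (0.66, adjusted p = 0.00821, edgeR). Among the lists, the block gave 4 in place of 1 upstream regulators lower in HFD vs RD islets and 4 in place of 2 higher in HFD-O304 vs HFD islets, and called Rbl1 and Usp2 lower there and E2f1 and Irs2 lower in HFD-O304 vs RD islets. Cdkn2a, Cdk6 and Cdkn1c had the fewest read pairs and the widest errors of the 10 genes.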
